A study of Mus musculus with 6 samples.

Results

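The genes described here make and read the nitric oxide signal or build the membrane pits in which its main synthase sits. They were chosen by name and number 10 of the 50600 genes in the count table. They are the nitric oxide synthases Nos1, Nos2 and Nos3, the soluble guanylate cyclase subunits Gucy1a1 and Gucy1b1, the cGMP-dependent kinase Prkg1, the cGMP phosphodiesterase Pde5a, the caveolins Cav1 and Cav2, and the caveolar coat protein Cavin1. All 10 were found, and 9 passed the filter on low counts, Nos1 being the exception.

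RNA was sequenced from freshly isolated side population (SP) cells of the mouse heart, which are recognised by their efflux of a fluorescent DNA dye. There were 3 libraries from wild-type (wt) mice of strain C57BL/6NRj and 3 from mice labelled C57BL/6Flt3Ltml/mx on a C57BL/6N background, a knock-out of Flt3 ligand that is called flt3L-/- here. The mice were 8 to 12 wk old with no treatment given in the labels, and each library pooled the hearts of 4 animals after depletion of cardiomyocytes and erythrocytes. A wt and an flt3L-/- sort were made on each of 3 days, 22 and 24 August 2016 and 29 August 2017, and these are pairs 1, 2 and 3.

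Nitric oxide is made from arginine by the synthases, diffuses into neighbouring cells and binds the heme of soluble guanylate cyclase, a dimer of an alpha and a beta subunit that then makes cGMP. The kinase encoded by Prkg1 relays cGMP to the relaxation of vascular muscle, and Pde5a breaks cGMP down. In the heart, the endothelial synthase Nos3 sits in caveolae, where binding to caveolin-1 holds it inactive, and the cyclase, kinase and phosphodiesterase are best known from pericytes and smooth muscle cells.

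Members of this group lie side by side in the genome in 2 places. On GRCm38, Cav2 (chromosome 6, 17281185 to 17289115) and Cav1 (chromosome 6, 17306335 to 17341452) are 17219 bases apart on the plus strand, and Gucy1b1 (chromosome 3, 82032006 to 82074689) and Gucy1a1 (chromosome 3, 82092427 to 82145789) are 17737 bases apart on the minus strand, with 0 coding genes between them in each case. RefSeq's table of promoters for GRCm38.p6 held 8 of the 10 genes, all but Nos2 and Nos3. The 250 bases before the start are printed for the 4 genes whose window lies wholly outside the annotated gene. They show both sets described further on, Cav1 and Cav2 from the set with high levels and Gucy1b1 and Prkg1 from the set with low levels. Capitals mark the GC box, GGGCGG on either strand.
Cav1, chr6:17306085-17306334, plus strand: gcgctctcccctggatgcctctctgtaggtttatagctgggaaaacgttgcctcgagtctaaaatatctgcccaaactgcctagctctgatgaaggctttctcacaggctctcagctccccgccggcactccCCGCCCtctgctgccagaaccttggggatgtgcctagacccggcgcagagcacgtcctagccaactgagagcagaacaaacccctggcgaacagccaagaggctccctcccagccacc
Cav2, chr6:17280935-17281184, plus strand: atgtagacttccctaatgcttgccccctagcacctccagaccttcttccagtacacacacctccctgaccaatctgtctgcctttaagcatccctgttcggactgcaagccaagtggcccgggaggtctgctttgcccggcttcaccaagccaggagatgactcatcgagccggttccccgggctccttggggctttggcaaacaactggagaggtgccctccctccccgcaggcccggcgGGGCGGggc
Gucy1b1, chr3:82074712-82074961, minus strand: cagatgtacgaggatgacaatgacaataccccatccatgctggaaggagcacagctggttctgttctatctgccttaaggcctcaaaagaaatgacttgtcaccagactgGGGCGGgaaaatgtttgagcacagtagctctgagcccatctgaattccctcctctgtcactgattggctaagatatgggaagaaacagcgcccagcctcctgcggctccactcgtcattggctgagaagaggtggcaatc
Prkg1, chr19:31765034-31765283, minus strand: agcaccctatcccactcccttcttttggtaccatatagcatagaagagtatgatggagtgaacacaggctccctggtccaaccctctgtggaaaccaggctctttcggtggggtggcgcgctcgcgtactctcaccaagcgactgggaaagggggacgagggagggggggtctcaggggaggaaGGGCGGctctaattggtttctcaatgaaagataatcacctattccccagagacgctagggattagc
All 4 windows held 1 GC box, at 118 bases before the start in Cav1, 9 in Cav2, 140 in Gucy1b1 and 66 in Prkg1, counted to the first base of the motif on the gene's strand. The motif was found in 7 of the 8 genes with a window (all but Nos1), against 33.0% of 27018 promoter windows of the same length. The GC content of the 8 windows was 51.2 to 68.4%, against a median of 52.0% over all windows. Windows of like GC content were not compared. Of the windows not printed, those of Nos1 and Cavin1 lie inside the annotated gene, and those of Gucy1a1 and Pde5a overlap its start. TATAAA on either strand was found in Cav1 alone of the 8 (12.9% of all windows), CACCC in Prkg1, Pde5a and Cavin1 (51.4%), and CCGGAA in Pde5a (12.3%). CACGTG (6.02% of all windows) and the CArG box (1.40%) were in none of the 8. The GC box was thus present in genes of both sets.

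Total counts per library were between 24370913 and 31145519, and 3 counts, taken as the detection limit, equalled 0.109 to 0.127 CPM, the unit of counts after scaling to a common library size. These limits hold for counting error alone, as no molecular identifiers were used. Flt3l, the gene targeted in these mice, was not reduced, with 8.67, 10.8 and 12.1 CPM in wt and 13.6, 12.4 and 14.4 CPM in the other group, so the second group is given as the libraries labelled flt3L-/-. The 5 markers of the side population, among them the dye pump Abcg2, summed to 1813 to 2528 CPM in wt and 2283 to 3439.7 CPM in libraries labelled flt3L-/-. Ly6a and Cd34 made up most of this sum, with 523 and 975 CPM in the wt library of pair 1, against 147 CPM for Abcg2. The 12 endothelial markers listed were each above 3 counts in every library, as were the 12 markers of pericytes and smooth muscle cells and the 8 of fibroblasts. Lymphocyte markers summed to 42.2 to 173 CPM in wt and 24.8 to 81.6 CPM in libraries labelled flt3L-/-, cardiomyocyte markers to 103 to 152 and 156 to 194 CPM, and the Schwann cell marker Sox10 was at 3 counts or fewer in every library. In bulk RNA, fewer cells of a type and less RNA per cell cannot be told apart.

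Among the 10 genes, Cav1, Cav2, Cavin1 and Nos3 were abundant in SP cells, and Gucy1a1, Gucy1b1, Prkg1 and Pde5a were expressed at low levels. For this order, counts were divided by the length of each gene's exons and scaled to the same total over protein-coding genes in every library, which gives transcript shares (TPM) that can be set side by side between genes. Cav1 led with 2828 ± 497 TPM (SD over 6 libraries), followed by Cav2 with 1017 ± 171 and Cavin1 with 780.3 ± 92.5 TPM. The endothelial synthase Nos3 came next with 528 ± 82.2 TPM, well above the inducible synthase Nos2 with 61.3 ± 10.4 TPM. The cyclase subunits had 16.2 ± 7.03 (Gucy1a1) and 8.96 ± 4.83 TPM (Gucy1b1). Prkg1 had 1.87 ± 1.15 TPM, Pde5a had 1.12 ± 0.563 TPM and Nos1 had 0.0534 ± 0.0404 TPM.

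Each gene of this order was above the next in 6 of 6 libraries, except that Prkg1 exceeded Pde5a in 5 of 6. The ranges over the libraries overlapped for the neighbours Cav2 and Cavin1, Gucy1a1 and Gucy1b1, and Prkg1 and Pde5a, and did not overlap for the other 6 neighbouring pairs. The order was the same when the longest transcript was used as the length. Across the 6 libraries, Cav1 was at 2.53 to 3.10 times Cav2 and 3.11 to 5.24 times Cavin1. Cav1 exceeded Nos3 by 4.39 to 6.61 times, and the alpha subunit of the cyclase exceeded the beta subunit by 1.52 to 2.41 times. The ratio of Cav1 to Gucy1a1 varied more widely than these, from 72.4 to 342.

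**Figure D1:**
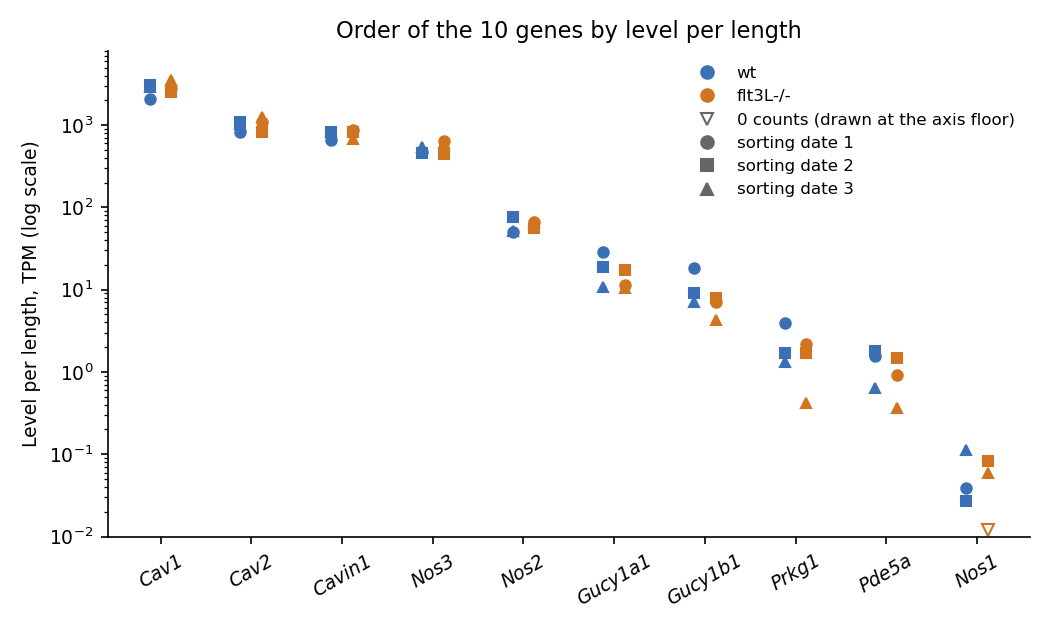
Level per length (TPM, log scale) of the 10 genes in each of the 6 libraries, ordered by the mean, with colour for the group and symbol for the sorting date. Cav1 lies between 2064 and 3538 TPM, Nos3 between 440.3 and 636 TPM, and the cyclase, kinase and phosphodiesterase genes at 28.5 TPM or less, with Nos1 at 0 counts in 1 library.

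The comparison of genotypes asked whether SP cells from Flt3 ligand knock-out mice differed in these genes. Nos2, Nos3, Cav1, Cav2 and Cavin1 had fitted levels 1.09 to 1.20 times those of wt. For Gucy1a1, Gucy1b1, Prkg1 and Pde5a the fitted levels were 0.610 to 0.756 times those of wt. None of the 9 genes passed the test at an adjusted p under 0.05. Nos3 (ENSMUSG00000028978) values, on the CPM scale, were 523, 499 and 605 in wt pairs 1 to 3 and 728, 496 and 758 in libraries labelled flt3L-/-. The libraries labelled flt3L-/- of pairs 1 and 3 were the highest of the 6, that of pair 2 was the lowest, and the groups overlapped. The log2 fold change of Nos3 was 0.27 ± 0.16 (SE, n = 3 pairs), a ratio of 1.20 with a 95% interval from 0.897 to 1.61 (adjusted p = 0.973 in edgeR's quasi-likelihood test), and it was 0.16 without pair 1. Of the exon bases of Nos3 (chromosome 5, 24364810 to 24384474, plus strand), 32.3% are shared with the antisense gene Gm15587 and with Atg9b. The libraries were unstranded, so reads of Nos3 cannot be told apart there from those of Gm15587, which was counted 3449 to 6111 times per library.

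Nos2 (ENSMUSG00000020826, chromosome 11, 78920787 to 78960254, plus strand), the synthase known for its induction in macrophages, was detected in all libraries. It had 59.5, 88.6 and 60.9 CPM in wt and 80.7, 68.2 and 88.3 CPM in libraries labelled flt3L-/-. Higher and lower values occurred in both groups, and the pair of date 2 went opposite to the others. Its log2 fold change was 0.20 ± 0.22, with an interval from -0.38 to 0.78, and it was 0.078, 0.47 and 0.031 without pairs 1, 2 and 3. Summed markers of macrophages and monocytes ranged from 56.3 to 1901 CPM in wt and from 104 to 1074 CPM in libraries labelled flt3L-/-, with 7 of 8 markers above 3 counts in every library. Nos2 did not follow them. The wt libraries with the lowest and the highest macrophage sum, pairs 1 and 3, had the 2 lowest Nos2 values, and Pearson's r over the 6 libraries was -0.10.

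Nos1 (ENSMUSG00000029361, chromosome 5, 117781032 to 117958840, plus strand), the neuronal synthase, was at the edge of detection, with 3, 2 and 9 counts in wt and 0, 6 and 5 counts in libraries labelled flt3L-/-. Of the 6 libraries, 3 were above the limit of 3 counts, at 0.335, 0.255 and 0.198 CPM. It was not tested for this reason, and the 0 counts of 1 library allow up to 0.109 CPM.

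The caveolar members Cav1, Cav2 and Cavin1 had values slightly higher on average in libraries labelled flt3L-/-, with intervals that included no difference. Cav1 (ENSMUSG00000007655), whose protein forms the caveolar coat and binds Nos3, had 1913, 2751 and 2704 CPM in wt and 2701, 2386 and 3670.4 CPM in libraries labelled flt3L-/-. Pair 1 held the lowest wt value, pair 3 the highest value of all, and pair 2 was lower in the library labelled flt3L-/-. Its log2 fold change was 0.25 ± 0.21, a ratio of 1.19 with an interval from 0.805 to 1.74. Cav2 (ENSMUSG00000000058), the partner that needs Cav1 to reach the membrane, had 732, 939 and 931 CPM in wt and 1000.3, 746 and 1264 CPM in libraries labelled flt3L-/-. Its order over the libraries was close to that of Cav1, with r = 0.94 over the 6 libraries, and its log2 fold change was 0.19 ± 0.22. With each pair left out, the value ranged from 0.12 to 0.45 for Cav1 and from 0.054 to 0.42 for Cav2, highest without pair 2 in both.

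Cavin1 (ENSMUSG00000004044, chromosome 11, 100956733 to 100970887, minus strand), the coat protein that stabilises caveolae, had the narrowest range of the 9 genes tested. It had 632, 780.3 and 789 CPM in wt and 874, 799.7 and 729 CPM in libraries labelled flt3L-/-, so its highest value was 1.38 times its lowest. The log2 fold change was 0.13 ± 0.18, with an interval from -0.33 to 0.59, and it was -0.04 without pair 1. Unlike Cav1 and Cav2, Cavin1 was lower in the library labelled flt3L-/- of pair 3.

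The 4 members that make, relay and remove cGMP had values lower on average in libraries labelled flt3L-/-. Their intervals again included no difference, and 2 of the 4 were lower in 3 of 3 pairs. Gucy1a1 (ENSMUSG00000033910), the alpha subunit of the cyclase, had 53.4, 34.4 and 20.0 CPM in wt and 22.1, 32.7 and 21.7 CPM in libraries labelled flt3L-/-. Only the wt library of pair 1 stood well above the others, and the log2 fold change of -0.40 ± 0.32 became 0.02 without that pair. Gucy1b1 (ENSMUSG00000028005), the heme-binding beta subunit, had 19.3, 9.39 and 7.41 CPM in wt and 7.76, 8.44 and 5.07 CPM in libraries labelled flt3L-/-. Each pair was lower in the library labelled flt3L-/-, with log2 differences of -1.31, -0.15 and -0.54, although the groups overlapped. Its log2 fold change was -0.67 ± 0.30, a ratio of 0.627 with an interval from 0.366 to 1.08 (unadjusted p = 0.0768, adjusted p = 0.973 in edgeR's quasi-likelihood test), and it was -0.35 without pair 1.

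Prkg1 (ENSMUSG00000052920, chromosome 19, 30564489 to 31765033, minus strand), the kinase, varied most, with 11.4, 4.81 and 3.84 CPM in wt and 6.67, 5.01 and 1.39 CPM in libraries labelled flt3L-/-. Its highest value was 8.20 times its lowest. Pair 2 was level, and the log2 fold change of -0.71 ± 0.38 had an interval from -1.69 to 0.26. It was -1.13 without pair 2 and -0.36 without pair 3. Pde5a (ENSMUSG00000053965, chromosome 3, 122728947 to 122859374, plus strand), the phosphodiesterase specific for cGMP, had 4.12, 4.54 and 1.68 CPM in wt and 2.51, 3.90 and 1.07 CPM in libraries labelled flt3L-/-. All 3 pairs were lower in the library labelled flt3L-/-, the groups overlapped, and the log2 fold change was -0.52 ± 0.31, with an interval from -1.33 to 0.29. At 27 to 117 counts per library, Pde5a had the fewest counts among the genes tested here.

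**Figure D2:**
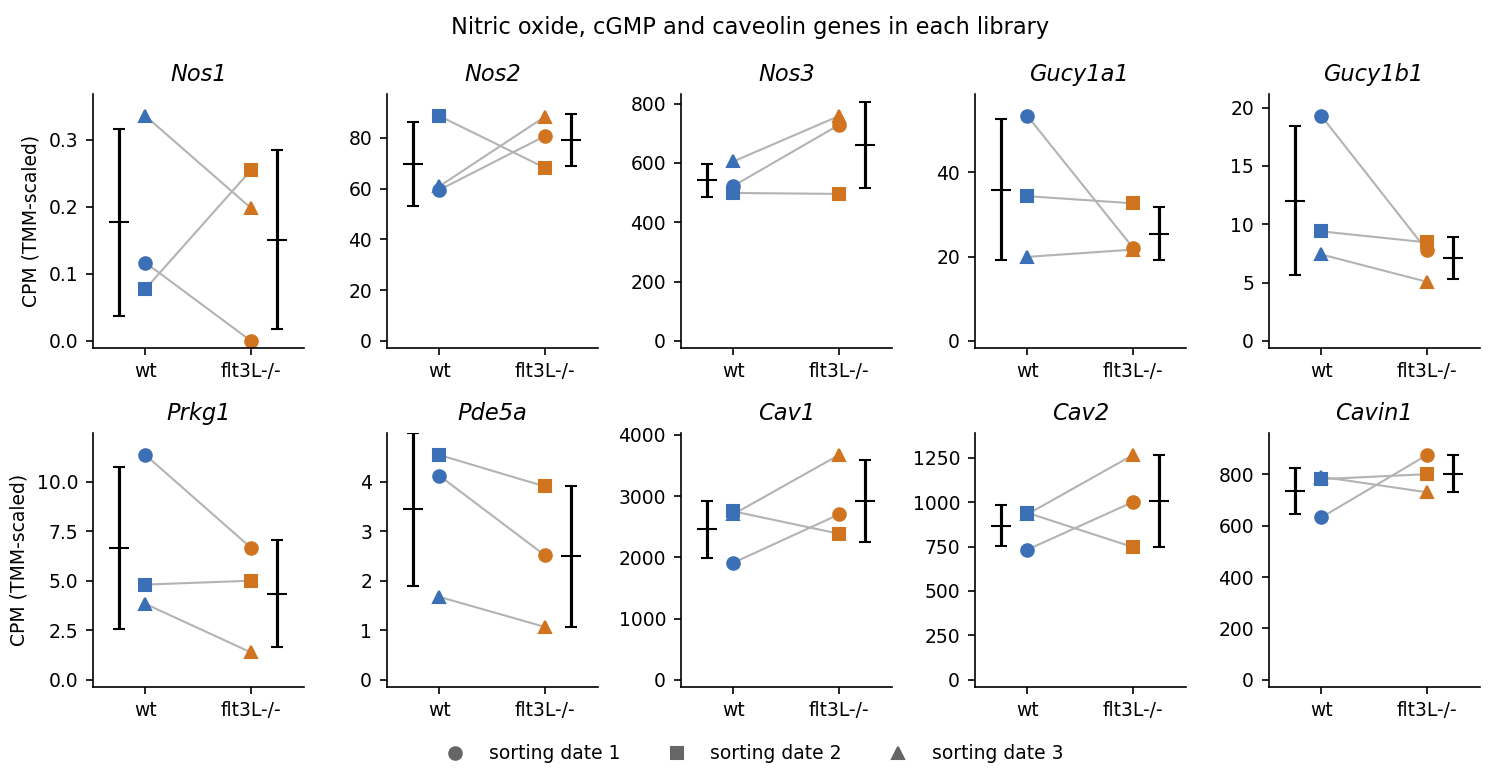
CPM of each gene in wt libraries (blue) and libraries labelled flt3L-/- (orange), with lines joining the pair of a sorting date and black marks for the mean ± SD (n = 3). The groups overlap in every panel, and Gucy1b1 and Pde5a are lower in the library labelled flt3L-/- in 3 of 3 pairs.

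None of the 9 genes was called at an adjusted p under 0.05, where 0% of the 13475 genes tested were called, and their adjusted p-values in edgeR were 0.973 to 0.974. By DESeq2 21 of the genes tested were called, and none of them was among the 9. At an unadjusted p under 0.05, 0 of the 9 passed, against 1.11% of all genes higher and 2.49% lower in libraries labelled flt3L-/- (149 and 335 genes, 3.59% together). Of the 9, 2 (Gucy1b1 and Pde5a) were lower in 3 of 3 pairs and 0 were higher in 3 of 3, where 11.5% and 14.2% of all genes were so. None of the 9 had groups that did not overlap, against 3.53% of all genes with every library labelled flt3L-/- above wt and 2.92% below. The median log2 fold change was -0.60 for Gucy1a1, Gucy1b1, Prkg1 and Pde5a, 0.19 for the caveolar genes, and 0.00 for all genes tested. The 3 pairs are separate pools of animals, and the p-values set each genotype difference against the variation left after sorting date is fitted.

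**Figure D3:**
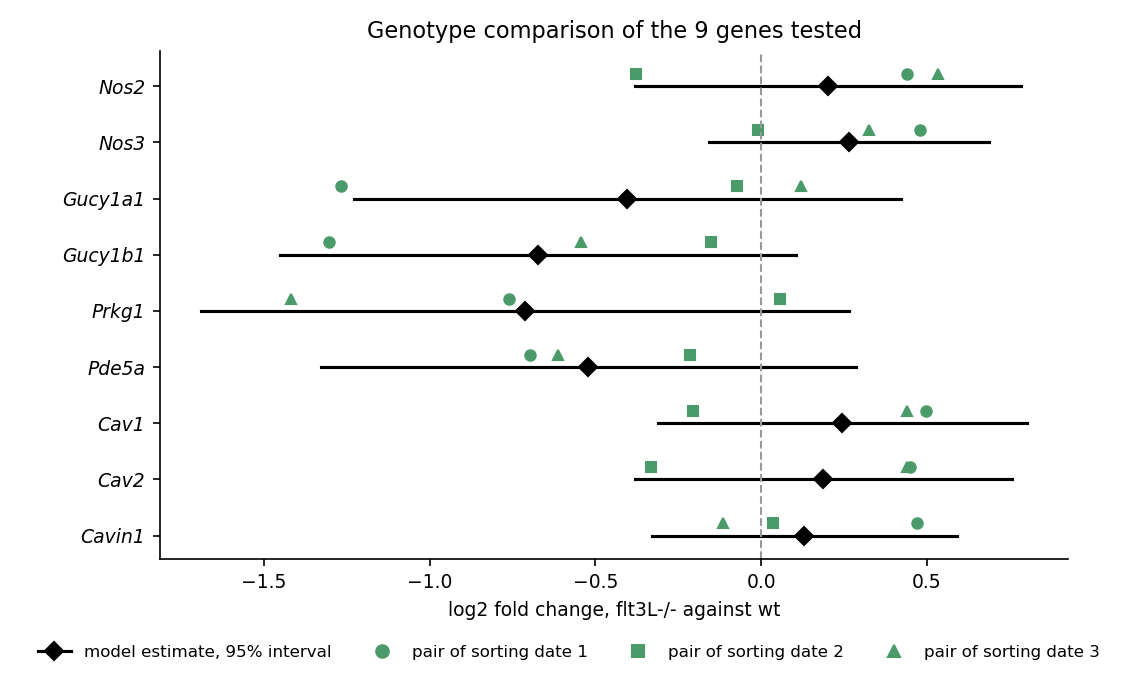
Log2 fold change of the libraries labelled flt3L-/- against wt for the 9 genes tested, with the model estimate and its 95% interval (black) and the difference within each sorting date (green). All 9 intervals include 0, the synthases and caveolar genes lie above 0 and the cyclase, kinase and phosphodiesterase genes below it, and the pair of date 2 lies nearest to 0 or on the opposite side for each of the 9 genes.

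Between sorting dates, Pde5a and Prkg1 had the widest spans of the 9 genes, without passing the adjusted threshold. The test of the 3 dates, in the same model as the genotypes, gave an unadjusted p of 0.0224 for Pde5a and 0.0291 for Prkg1, so 2 of the 9 genes passed an unadjusted p under 0.05, which 8.28% of all genes did. At an adjusted p under 0.05, 0 of the 9 were called, where 0% of all genes were (389 genes by DESeq2, none of them among the 9). Pde5a was lowest on date 3, where both libraries (1.68 and 1.07 CPM) were below the other 4 (2.51 to 4.54 CPM), and its dates spanned 1.65 on the log2 scale. Prkg1 was highest on date 1, where both libraries (11.4 and 6.67 CPM) were above the other 4, and its dates spanned 1.86. The span was 1.03 for Gucy1b1 and 0.77 for Gucy1a1, with unadjusted p of 0.0953 and 0.205 in edgeR, and the values of Gucy1a1 on dates 1 and 2 overlapped. It was 0.47 or less for the synthases and caveolar genes, with 0.08 for Cavin1. Dates 1 and 2 were in the same month and date 3 a year later, and a date stands for everything that differed between those sorts.

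Across the 6 libraries the genes moved in a pair of opposite sets. The sets are those given by the sign of the genotype difference fitted to these same libraries, so the patterns are not independent. The share of gene pairs in general with such signs was not computed. All 10 correlations of log2 CPM among Nos2, Nos3, Cav1, Cav2 and Cavin1 were positive (0.28 to 0.94), as were all 6 among Gucy1a1, Gucy1b1, Prkg1 and Pde5a (0.68 to 0.89), and 0 of the 20 between the sets were (-0.93 to -0.11). These values describe 6 libraries that share dates, groups and, within a library, the total to which counts are scaled, so that a higher share of some genes lowers that of others. The wt library of date 1 stood at one end, with the lowest Cav1, Cav2, Cavin1 and Nos2 and the highest Gucy1a1, Gucy1b1 and Prkg1. The library labelled flt3L-/- of date 3 stood at the other end, with the highest Cav1, Cav2 and Nos3 and the lowest Gucy1b1, Prkg1 and Pde5a.

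Markers of cell types moved with both sets. Summed markers of pericytes and smooth muscle cells were 922, 453 and 507 CPM in wt and 574, 514 and 283 CPM in libraries labelled flt3L-/-, highest and lowest in the same 2 libraries as Prkg1. Pdgfrb, Rgs5 and Abcc9 made up most of this sum, with 332, 197 and 154 CPM in the wt library of date 1. That library held the highest value of each of the 12 markers except Kcnj8, Higd1b and Vtn. The library labelled flt3L-/- of date 3 held the lowest value of each except Rgs5, Cspg4, Higd1b and Vtn. For the sum, r over the 6 libraries was 0.97 with Prkg1, 0.91 with Gucy1b1, 0.67 with Gucy1a1 and 0.66 with Pde5a. Fibroblast markers, of which Gsn and Dcn made up most, summed to 42148, 27056 and 21166 CPM in wt and 20632, 31784 and 9897 CPM in libraries labelled flt3L-/-. Their r was 0.91 with Prkg1, 0.90 with Pde5a, 0.88 with Gucy1b1 and 0.79 with Gucy1a1. Endothelial markers summed to 7742 to 9529 CPM in wt and 7735 to 10201 CPM in libraries labelled flt3L-/-, with r = 0.92 with Cav2, 0.82 with Cav1, 0.77 with Nos3, 0.72 with Nos2 and 0.50 with Cavin1. For these genes in the same order, r with the fibroblast markers was -0.96, -0.96, -0.84, -0.61 and -0.28. With the markers of pericytes and smooth muscle cells it was -0.82, -0.96, -0.49, -0.71 and -0.34. The part of these cells in the differences was not tested.

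Each gene was also divided by a marker sum, a step chosen after the data were seen. Divided by the markers of pericytes and smooth muscle cells, the mean difference over the pairs was 0.04 ± 0.81 for Gucy1a1, -0.22 ± 0.47 for Gucy1b1, -0.28 ± 0.30 for Prkg1 and -0.08 ± 0.30 for Pde5a (SD, log2), where the undivided values were -0.41 ± 0.75, -0.67 ± 0.59, -0.73 ± 0.76 and -0.53 ± 0.27. The means lay nearer to 0, and the SD over the pairs was smaller for Gucy1b1 and Prkg1 and larger for Gucy1a1 and Pde5a. The highest library was 2.52 times the lowest for Prkg1 (8.20 undivided), 1.55 times for Gucy1b1 (3.81), 1.99 times for Gucy1a1 (2.68) and 3.03 times for Pde5a (4.25). Divided by the endothelial markers, these 4 ranges were wider than undivided, at 10.8, 5.02, 3.25 and 5.08 times. Divided by the fibroblast markers, they were narrower than undivided, at 2.31, 1.93, 2.32 and 2.12 times. The mean pair differences were then -0.10 ± 0.33 for Prkg1, -0.04 ± 0.51 for Gucy1b1, 0.22 ± 0.86 for Gucy1a1 and 0.10 ± 0.48 for Pde5a. The narrowing was thus not particular to the markers of pericytes and smooth muscle cells. For the other set, the mean pair difference after division by the endothelial markers was 0.12 ± 0.25 for Nos2, 0.19 ± 0.10 for Nos3, 0.17 ± 0.12 for Cav1, 0.11 ± 0.18 for Cav2 and 0.05 ± 0.29 for Cavin1, where the undivided values were 0.20 ± 0.50, 0.26 ± 0.25, 0.24 ± 0.39, 0.19 ± 0.45 and 0.13 ± 0.30. Nos3 and Cav1 were then higher in the library labelled flt3L-/- in 3 of 3 pairs, by 0.08, 0.29 and 0.19 for Nos3 and 0.10, 0.10 and 0.31 for Cav1. The share of all genes that were so after this division was not computed. Kdr was the largest part of the endothelial sum (3385 of 7742 CPM in the wt library of date 1). That sum had a log2 difference of -0.30 in pair 2, so dividing by it raised the pair 2 difference of every gene.

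**Figure D4:**
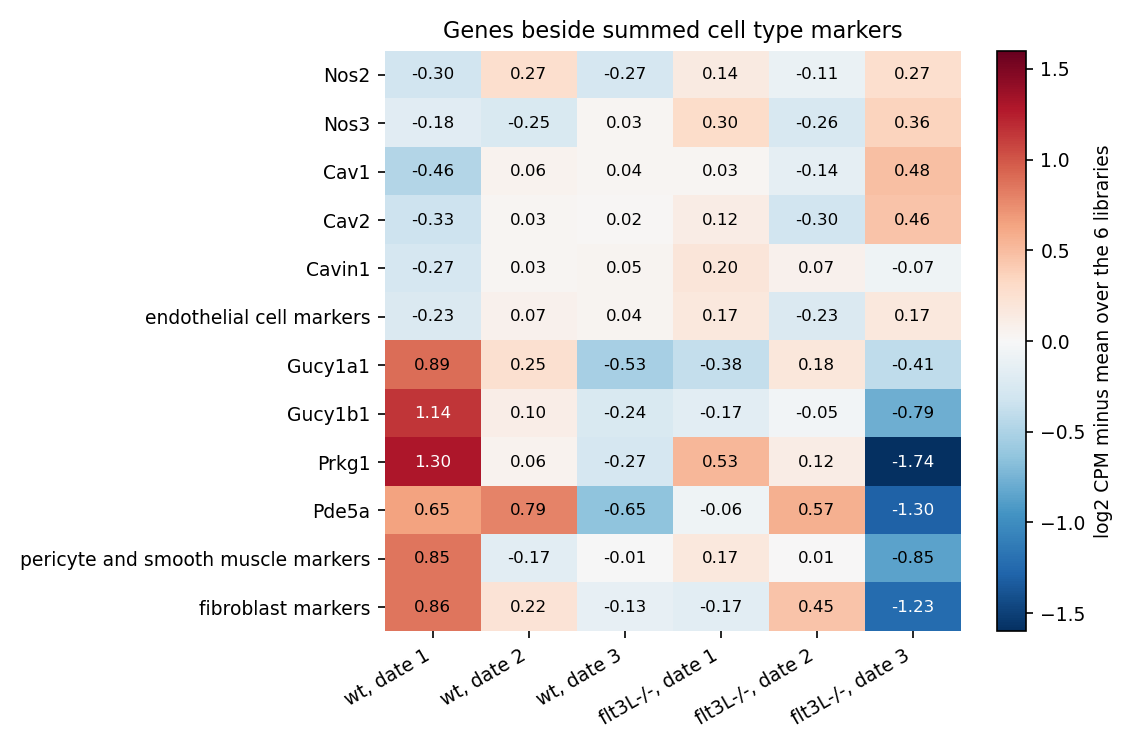
Log2 CPM of each gene, and of the summed markers of 3 cell types, minus its mean over the 6 libraries (red above, blue below). The wt library of date 1 and the library labelled flt3L-/- of date 3 hold the widest contrasts, with Prkg1 at 1.30 and -1.74, the pericyte and smooth muscle markers at 0.85 and -0.85, and Cav1 at -0.46 and 0.48.

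The wider pathway was read from a list of 56 genes that regulate the synthases, supply arginine and tetrahydrobiopterin, make, bind or hydrolyse cGMP, or form caveolae. Of these, 50 were tested and 0 were called. At an unadjusted p under 0.05, 1 was higher and 4 were lower in libraries labelled flt3L-/-, where 1.11% and 2.49% of all genes were so. The median log2 fold change was 0.03, against 0.00 for all genes. Over 3 of 3 pairs, 9 of the 50 were higher and 10 lower, against 14.2% and 11.5% of all genes. In 2 of the 50 (Nosip and Cavin3, named after their values were seen) every library labelled flt3L-/- was above every wt library, which held for 3.53% of all genes.

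Among regulators of the synthases, 8 of 9 had a log2 fold change above 0 and 5 were higher in 3 of 3 pairs, where 6733 of all 13475 genes were above 0 and 14.2% were higher in 3 of 3 pairs. Hsp90ab1, a chaperone that binds Nos3 and activates it, led the list in abundance (4015 TPM), with 2451, 2333 and 3002 CPM in wt and 3900.3, 2731 and 5696 CPM in libraries labelled flt3L-/-. Each pair was higher in the library labelled flt3L-/- and only the value of pair 2 lay within the wt range, for a log2 fold change of 0.61 ± 0.21 (unadjusted p = 0.0348, adjusted p = 0.973 in edgeR's quasi-likelihood test). Gch1, which makes the first intermediate of the cofactor tetrahydrobiopterin, had 62.4, 72.0 and 79.8 CPM in wt and 92.3, 74.8 and 109.6 CPM in libraries labelled flt3L-/-, and its log2 fold change was 0.36 ± 0.16. Slc7a2, an arginine transporter, was lower in 3 of 3 pairs, with a log2 fold change of -0.68 ± 0.24 (-0.40 when pair 3 was left out).

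Most phosphodiesterases that can hydrolyse cGMP had, like Pde5a, lower values in libraries labelled flt3L-/-. Of 8 tested, 6 had a log2 fold change below 0 and 4 were lower in 3 of 3 pairs, with a median of -0.69. Of all 13475 genes, 6742 were below 0 and 11.5% were lower in 3 of 3 pairs. Pde3a, which hydrolyses cAMP and is inhibited by cGMP, had 67.3, 30.1 and 22.7 CPM in wt and 36.6, 25.04 and 10.3 CPM in libraries labelled flt3L-/-. All pairs were lower, the groups overlapped, and the log2 fold change was -0.76 ± 0.22 (unadjusted p = 0.0181). Kcnma1, a potassium channel that the cGMP kinase activates, had a log2 fold change of -0.89 ± 0.26 and ranged from 1.07 to 10.1 CPM. Pde3a and Kcnma1, like Prkg1, were highest in the wt library of date 1 and lowest in the library labelled flt3L-/- of date 3. So were the summed markers of pericytes and smooth muscle cells, and those of fibroblasts.

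Of 8 other caveolar genes tested, 5 had a log2 fold change above 0, with a median of 0.08. Cavin2, a further coat protein, was abundant (1812 TPM) and had a log2 fold change of 0.04 ± 0.17. Ehd1, an ATPase of membrane remodelling from the family found at caveolae, had a log2 fold change of 0.47 ± 0.20, or 0.23 without pair 1, and was higher in 3 of 3 pairs. Cav3, the caveolin of muscle, had 3.12 ± 1.68 TPM, against 2828 TPM for Cav1.

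**Figure D5:**
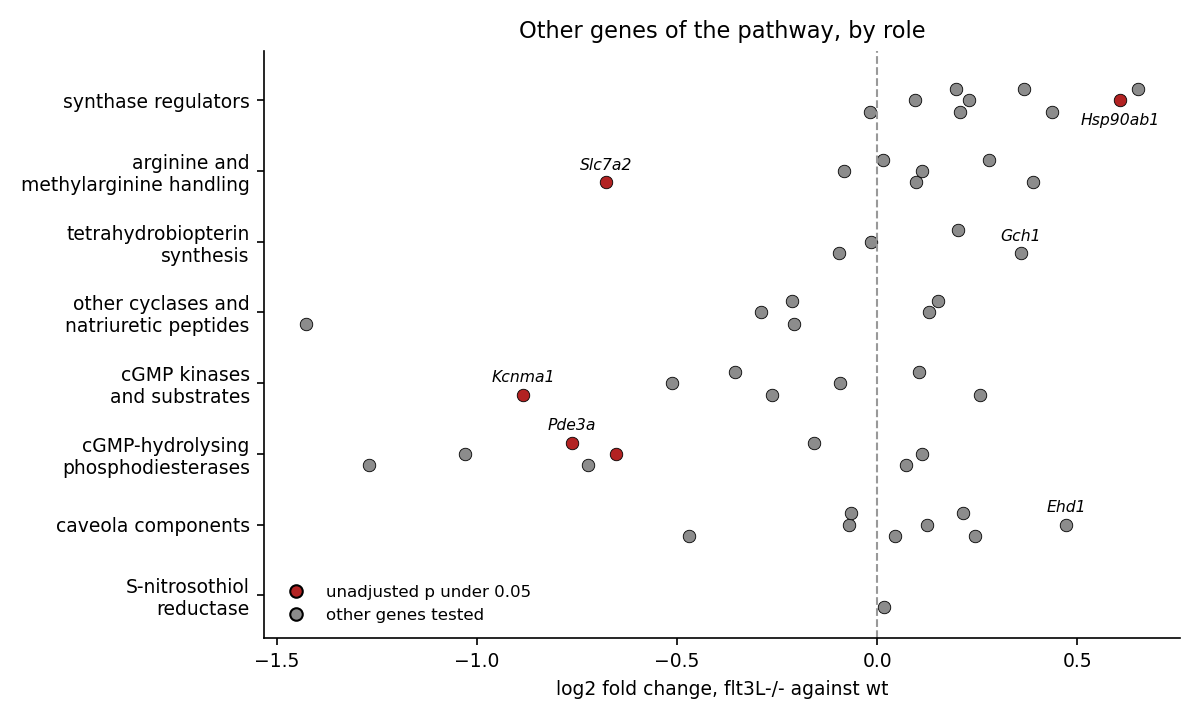
Log2 fold change of the libraries labelled flt3L-/- against wt for the 50 other pathway genes tested, 1 point per gene, grouped by role. Points in red have an unadjusted p under 0.05 (1 higher and 4 lower), none passes the adjusted threshold, and the phosphodiesterases have the lowest median (-0.69).

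Likeness over the 6 libraries was described by the correlation of log2 CPM with all 13475 genes tested, for the 6 members above 10 CPM. Among the nearest genes were Gm5431, Bicd2 and Ctnna1 for Nos3 (r = 0.997, 0.996 and 0.996), Rfxap and Thg1l for Nos2 (0.979 and 0.970), and Nkapl, 6330409D20Rik and Bysl for Cav1 (0.999, 0.997 and 0.996). For Cav2 they were Rnf41, Gm28557 and Trim6 (0.992 to 0.995), for Cavin1 they were Sdad1, F2rl3 and Pgam2 (0.973 to 0.980), and for Gucy1a1 they were Mzt2, Gm11007 and Col9a1 (0.994 to 0.995). With 6 points and this many genes, values this close to 1 occur for every member examined.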

How the data were processed

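RNA-seq was analysed in 6 libraries of cardiac SP cells, 3 per group. The authors deposited raw counts of reads per gene, not normalized. According to the labels, polyA RNA was made into unstranded libraries with a low-input kit and mapped to mm10 with STAR 2.5.2a, and the study's methods state that reads starting in an exon were counted.

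Genes were tested in edgeR 4.0.16 on R 4.3.3 with TMM factors, sorting date as a covariate and glmQLFTest with legacy = TRUE, for protein-coding genes above 1 CPM in at least 2 libraries (13475 genes). P-values were adjusted by the Benjamini-Hochberg method across these genes, with a threshold of 0.05. Intervals are 95% and standard errors come from the F statistic. For pair differences, 2 was the prior count. Total counts and the limit of 3 counts set the precision of rare genes. Annotation was GENCODE M21.

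Pairs rest on the sorting dates in the labels. After removal of group means, the libraries of a date correlated at 0.180, 0.104 and 0.116, and libraries of different dates at -0.354 to 0.247. No library was a copy of another (lowest chi-square per degree of freedom 54.6).

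The members and lists were chosen with earlier results of these data known. By rule, all 10 members were named, with the 3 pathway genes of smallest p in each direction, the 3 most abundant and, for likeness, the 3 closest genes. Of the genes the rule gives, 2 are not reported here. The test was first checked on simulated data, where it called 0 of 50 genes changed 1.5-fold, 4 of 50 changed 2-fold and 48 of 50 changed 4-fold. The fitted differences of the members tested were all below 2-fold, so the lack of calls among them does not show a lack of difference. Alternatives were other normalizations, filters, dispersion methods, DESeq2 1.42.0, all biotypes, thinning, no block, each pair left out, a threshold of 0.1 and the longest transcript.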

Additional observations from a re-analysis of the deposited data

How the results depend on the processing

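Members called stayed at 0 under all 15 alternatives of the genotype comparison and all 14 of the sorting date comparison, with smallest adjusted p-values of 0.652 and 0.109. Of the 9 members tested, Gucy1a1 and Cavin1 changed sign, each without pair 1 and under none of the other alternatives. With each pair left out, the log2 fold change was -0.67 to 0.022 for Gucy1a1 and -0.040 to 0.25 for Cavin1 (sign changed without pair 1), and -0.046 to 0.16 for Cavin2 (without pairs 1 and 3); the cause was not tested. DESeq2 called 21 genes for genotype and 389 for sorting date, against 0 in edgeR, and each pair left out gave 0 for genotype and 0 to 112 for date (112 without pair 2). With no replicate block, 93 genes were higher and 169 lower at an unadjusted p under 0.05, against 149 and 335, 0 were called, and the log2 fold changes were -0.61 for Prkg1, -0.76 for Gucy1b1 and 0.29 for Nos3. Without pair 2 these counts were 233 and 747. Without pair 1, 79 genes were higher, and without pair 3, 141 were lower. With the longest transcript the mean ratio of Cav1 to Nos3 was 6.77 in place of 5.40, since the length used for Cav1 changed. Depth limits Nos1, and leaves Pde5a and Prkg1 with few counts.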

Other observations

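The genes in this paragraph were named after their values had been seen, from the pathway list. Per length, some other enzymes of cGMP were more abundant in SP cells than the members with the same task, and others less. Pde2a, a phosphodiesterase that cGMP itself stimulates, had 220.3 ± 46.3 TPM (SD over 6 libraries), the highest of the 9 listed phosphodiesterases, against 1.12 ± 0.563 TPM for Pde5a. Of its exon bases, 64.3% are shared with Gm45837, so the level of Pde2a is uncertain. The others above Pde5a were Pde1a, Pde9a, Pde3a, Pde3b and Pde10a (2.07 to 20.3 TPM), and Pde1b, Pde1c and Pde11a were below it (0.926, 0.427 and 0.0908 TPM). The natriuretic peptide receptors Npr2 and Npr1, membrane enzymes that make cGMP, had 87.97 ± 45.9 and 49.6 ± 13.8 TPM, against 16.2 ± 7.03 TPM for Gucy1a1. The kinase Prkg2 had 0.394 ± 0.331 TPM, below Prkg1 with 1.87 ± 1.15 TPM. Npr2 had 149, 165 and 52.5 CPM in wt and 170.2, 80.2 and 51.4 CPM in libraries labelled flt3L-/-, lowest on date 3 in both groups (for sorting date, unadjusted p = 0.0145 and adjusted p = 0.598 in edgeR). Of the enzymes that degrade methylarginines, the natural inhibitors of the synthases, Ddah2 had 221 ± 35.2 TPM and Ddah1 16.3 ± 3.37 TPM.

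Nosip and Cavin3, the genes of the list whose groups did not overlap, had small differences. Nosip, which binds Nos3 and moves it from the membrane, had 81.7, 84.6 and 81.6 CPM in wt and 90.1, 100.5 and 133 CPM in libraries labelled flt3L-/- (log2 fold change 0.37 ± 0.16, unadjusted p = 0.0769 in edgeR's quasi-likelihood test). Cavin3, a caveolar coat protein, had 138, 137 and 145 CPM in wt and 155, 152 and 183 CPM in libraries labelled flt3L-/- (log2 fold change 0.21 ± 0.12). Of the exon bases of Cavin3, 22.5% are shared with Gm45667, and reads of these genes cannot be told apart there. Gucy1a2, the alternative alpha subunit of the cyclase, was scarce at 0.909 ± 0.744 TPM, with 4.12, 1.59 and 1.15 CPM in wt and 1.57, 1.19 and 0.158 CPM in libraries labelled flt3L-/-, and was highest and lowest in the same libraries as Prkg1.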
